A study of Caenorhabditis elegans with 6 samples.

Results

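The genes described here build and maintain the cilium, the microtubule-based projection at the dendrite tips of sensory neurons in *Caenorhabditis elegans*. They were chosen by name as a list of 47 genes of cilium assembly and of the transition zone, the gate at the ciliary base. A gene was measured if its symbol was the single gene named for a probe set in the array's platform annotation, and its probe set with the highest mean was used. This left 45 of the 47 genes, of 17118 genes tested in all, since *ift-20* and *mks-2* had no such probe set. Total RNA of the wild-type strain N2 was compared between fed first-stage larvae (L1, 3 arrays) and embryos of mixed ages (3 arrays). Per the labels, the larvae came from bleached gravid adults, were left 24 h at 20 °C to hatch in M9, a buffer without food, and were then fed for 3 h with the *Escherichia coli* strain HB101 (10 mg/mL) at 10 worms per µL. The embryos were harvested from bleached gravid N2 adults kept on agar with HB101. Titles of the embryo samples carry the mark XX, which the L1 titles do not. No transgene or drug is named for either group.

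As background, cilia are built by intraflagellar transport (IFT), in which kinesin motors carry trains of IFT-B and IFT-A proteins to the tip and cytoplasmic dynein brings them back. The BBSome, named after Bardet-Biedl syndrome, links membrane cargo to these trains, and the MKS and NPHP proteins of the transition zone control what enters. In *C. elegans* only sensory neurons bear cilia, these arise late in embryogenesis, and the RFX transcription factor DAF-19 switches on many of the genes through a promoter element called the X-box. Ciliated cells are a small part of the animal. In RNA of whole animals, fewer ciliated cells and less RNA per ciliated cell cannot be told apart.

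The deposited values are RMA expression values on the log2 scale, and the number of arrays limits the precision. Array medians were 6.08 to 6.10 for L1 and at most 6.04 for embryos. Replicate arrays were close, with a median SD per gene of 0.11 in L1 and 0.12 in embryos and a correlation of at least 0.9926 between any pair of one stage (across probe sets, which do not count as independent). Listed marker genes went with the stage labels, but the lists were chosen with earlier results of these data known. They therefore do not test the labels. All 10 listed genes of oocytes and early embryos were lower in L1 (31.2% of all genes tested were). All 10 genes of the feeding intestine and all 6 muscle genes were higher (33.2% of all genes tested were). The titles of the embryo arrays share the same number tag and differ only in their last letter. The labels do not say whether replicates came from separate cultures, and the p-values therefore rest on a spread between arrays that could be technical in origin. The embryo arrays were re-analysed from an earlier series and the larvae had all been starved and then fed, so stage, feeding and array series cannot be told apart in any difference below. The source field of the L1 samples speaks of embryos, while their titles and stage labels name L1 larvae. Levels near background were judged against 5.43, the highest reading of the array's 32 probe sets against bacterial or yeast RNA (foreign controls), a level chosen after the values were known. Where arrays of the dimmer stage lay at or under it, "at least" marks a fold bound, set between the brighter stage's mean and the dimmer stage's values raised to 5.43.

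Most cilium genes differed little between the stages. By limma, with Benjamini-Hochberg adjustment over all 17118 genes and a threshold of 0.05, 15 of the 45 genes were higher in L1, 7 were lower and 23 did not pass. That is 48.9% called, against 64.4% of all genes tested. For rises alone the share was 33.3% against 33.2% of all genes, near the background, and for falls it was 15.6% against 31.2%. The median difference, L1 minus embryo, was 0.15 log2 units over the 45 genes and 0.05 over all genes. The split moved with the scaling: 12 rose and 10 fell after centring on array medians, and 8 rose and 20 fell after centring on the means of ribosomal protein genes, which shifted the median of all genes by -0.35. Of all genes tested 5158 rose and 5708 fell after centring on array medians. On the ribosomal protein scale 3900 of all genes rose and 9686 fell, against 5685 and 5339 as deposited. The median of the cilium genes lay 0.10 above that of all genes on each of these scales. Centring shifts all genes of an array alike, so it could not change this gap, which therefore says nothing about stability.

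Differences of at least 2-fold were rarer still. Among the 45 genes 41 differed by less than 1 log2 unit. The 4 exceptions (8.89%, against 34.4% of all genes tested) were the kinesin gene *osm-3* and *che-12*, which rose, and the kinesin-associated gene *kap-1* and the transition zone gene *mksr-2*, which fell. In 20 genes every L1 array lay above every embryo array (37.8% of all genes tested), in 8 every L1 array lay below (32.8% of all genes tested), and in 17 the stages overlapped. The plot of values on every array and the plot of differences show these genes by role.

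**Figure D1:**
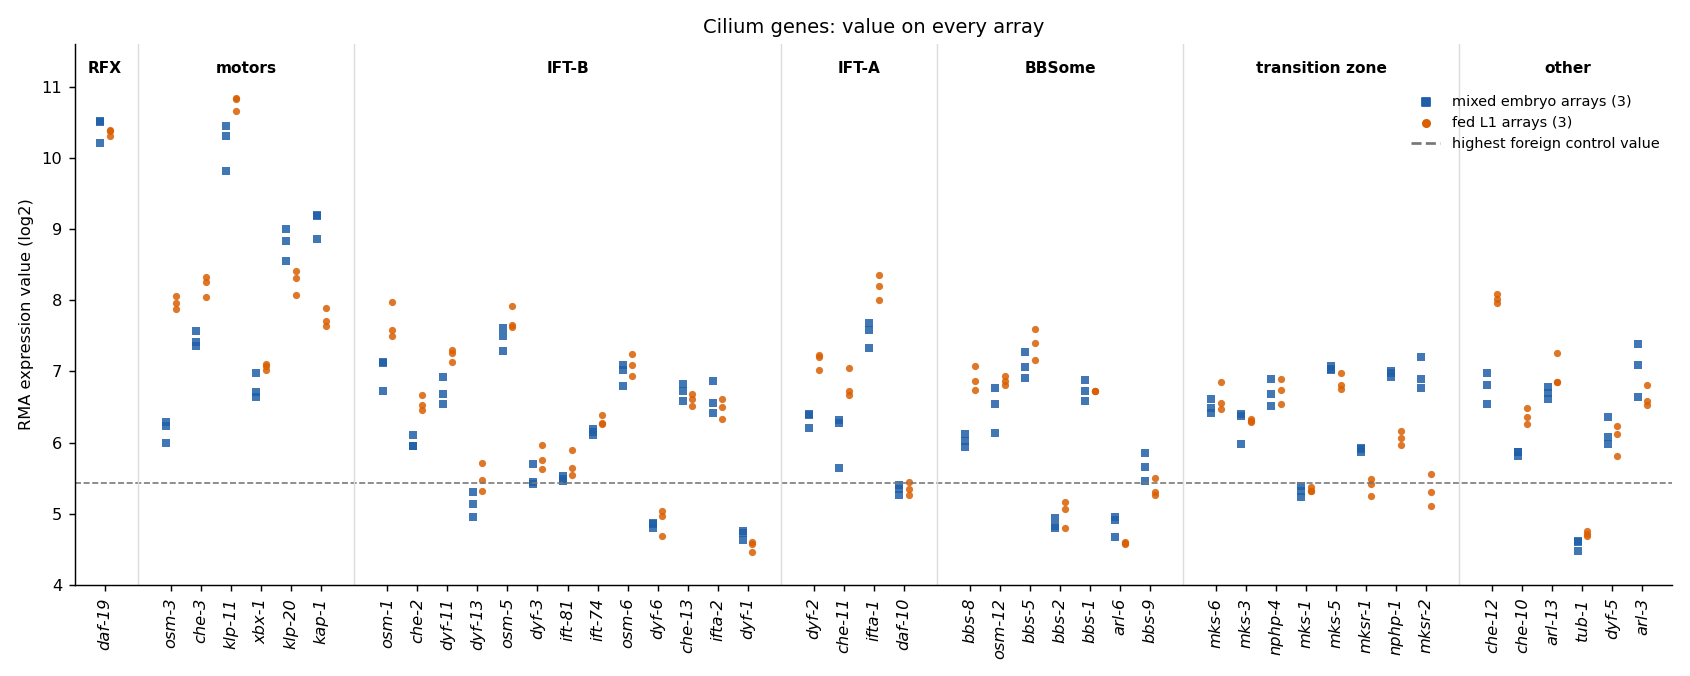
RMA value (log2, vertical axis) of each of the 45 cilium genes on each array, grouped by role; blue squares are the 3 mixed embryo arrays, orange circles the 3 fed L1 arrays, and the dashed line is the highest foreign control value, 5.43. The stages separate widely for *osm-3*, *kap-1*, *mksr-2* and *che-12* and lie close together or overlap for most other genes; levels of different genes are read by different probes and are not comparable.

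**Figure D2:**
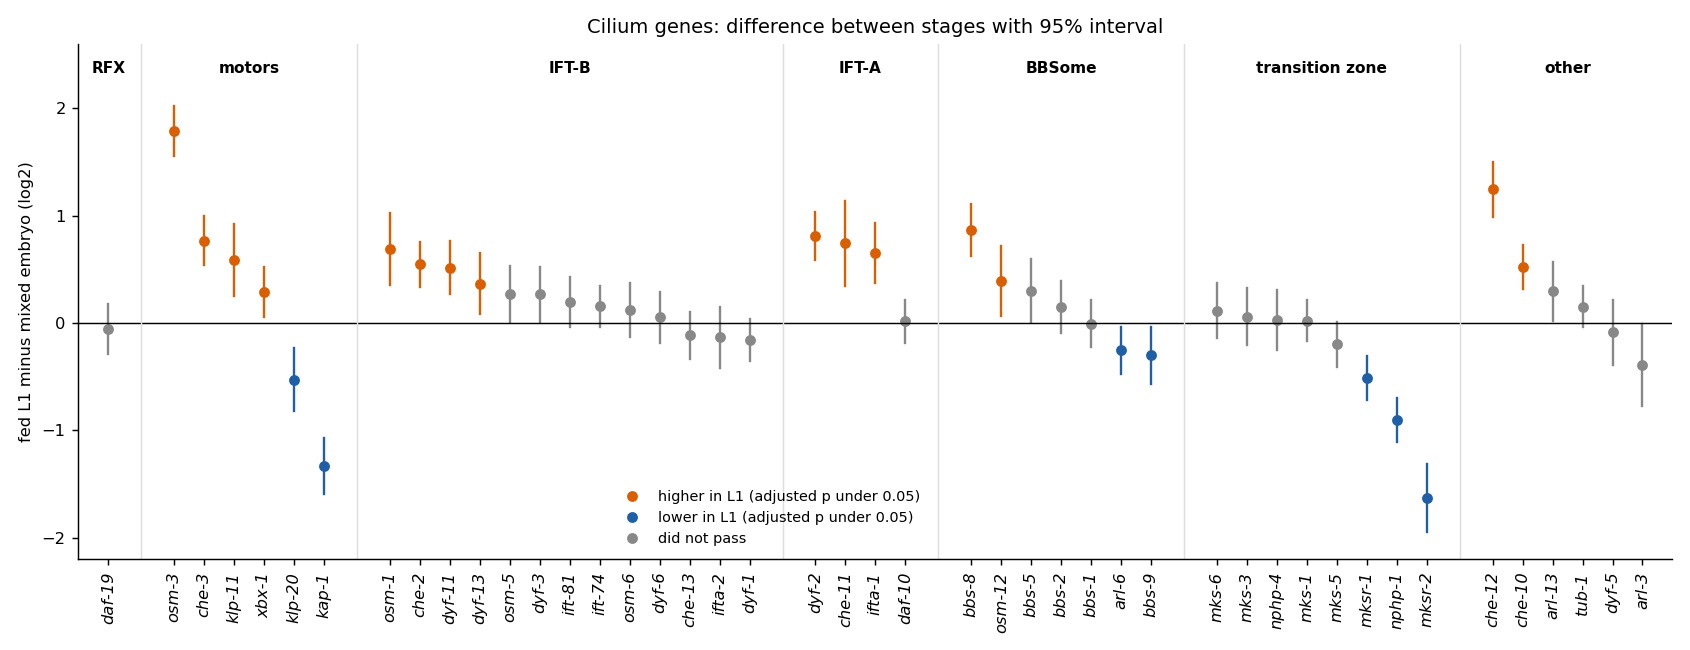
Difference between the stages, fed L1 minus mixed embryo (log2, vertical axis), for each of the 45 cilium genes with limma's 95% interval (n = 3 arrays per stage); orange marks genes higher in L1, blue genes lower in L1 and grey genes that did not pass. The motors run from 1.79 for *osm-3* to -1.34 for *kap-1*, all IFT-A genes but *daf-10* are orange, and the transition zone holds no orange point.

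The regulator *daf-19* was measured at nearly the same value in both stages. Its values were 10.31, 10.37 and 10.39 on the L1 arrays and 10.21, 10.52 and 10.51 on the embryo arrays. The stages overlapped, and the difference of -0.055 (SE 0.10, 95% interval -0.29 to 0.18) did not pass (limma adjusted p = 0.679). Its other probe set gave -0.16, which did not pass either. Both probe sets carry the suffix for matches to more than 1 transcript, and isoforms of *daf-19*, some of which act in neurons without cilia, are not told apart here. After centring arrays on ribosomal protein genes *daf-19* was lower in L1, by -0.41 (adjusted p = 0.00321).

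All 6 motor genes passed the test, against 64.4% of all genes, with 4 higher and 2 lower in L1. *osm-3* encodes the homodimeric kinesin that drives IFT along the outer segment of the cilium. It had 8.06, 7.96 and 7.88 on the L1 arrays and 6.0, 6.24 and 6.29 on the embryo arrays. All L1 values were higher, and the rise of 1.79 log2 units (SE 0.10) is 3.46-fold (95% interval 2.95 to 4.06, limma adjusted p = 8.57e-08). It was the largest rise among the 45 genes, and 1563 of all genes tested rose further.

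The other anterograde motor, heterotrimeric kinesin-II, moves with OSM-3 along the middle segment. Its subunit genes did not share a direction. *klp-11*, which encodes a motor subunit, had 10.66, 10.83 and 10.84 in L1 and 9.82, 10.45 and 10.31 in embryos. It rose by 0.58 (SE 0.15, limma adjusted p = 0.00584), with embryo array A lowest. All 4 of its probe sets were higher in L1, by 0.31 to 0.85, and 3 of them passed. *klp-20*, the partner motor subunit, had 8.08, 8.41 and 8.31 in L1 and 8.84, 9.0 and 8.55 in embryos. It fell by 0.53 (SE 0.13, limma adjusted p = 0.00505), and its other probe set fell by 0.54. *kap-1*, the non-motor subunit that joins the pair, had 7.89, 7.71 and 7.64 in L1 and 8.86, 9.18 and 9.20 in embryos. The stages were far apart, and its fall of 1.34 log2 units (SE 0.12) is 2.52-fold (limma adjusted p = 2.35e-06). The probe sets used for these 3 genes are of the kind whose probes may match related sequences.

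A comparison within each array does not depend on how arrays were centred. Only its change between stages can be read, since the genes have different probes. The value of *osm-3* minus that of *kap-1* was 0.17, 0.25 and 0.25 on the L1 arrays and -2.86, -2.95 and -2.91 on the embryo arrays. The change of 3.13 log2 units far exceeded the SD of 0.05 in L1 and 0.04 in embryos. For *klp-11* minus *kap-1* the L1 mean was 3.03 ± 0.23 and the embryo mean 1.11 ± 0.15 (SD, n = 3 arrays each), a change of 1.92. For *klp-11* minus *klp-20* they were 2.51 ± 0.08 and 1.40 ± 0.39, a change of 1.11. No L1 array fell within the embryo range for any of these pairs, nor for *osm-3* minus *klp-11* (change 1.21). The exact 2-sided permutation p was 0.10 for each of the 4 pairs, also after Benjamini-Hochberg adjustment, which is the smallest that 3 against 3 arrays allow. The pairs were chosen after the values were seen. After another quantile normalization the 4 changes were 3.02, 1.87, 1.06 and 1.15, in the order given.

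**Figure D3:**
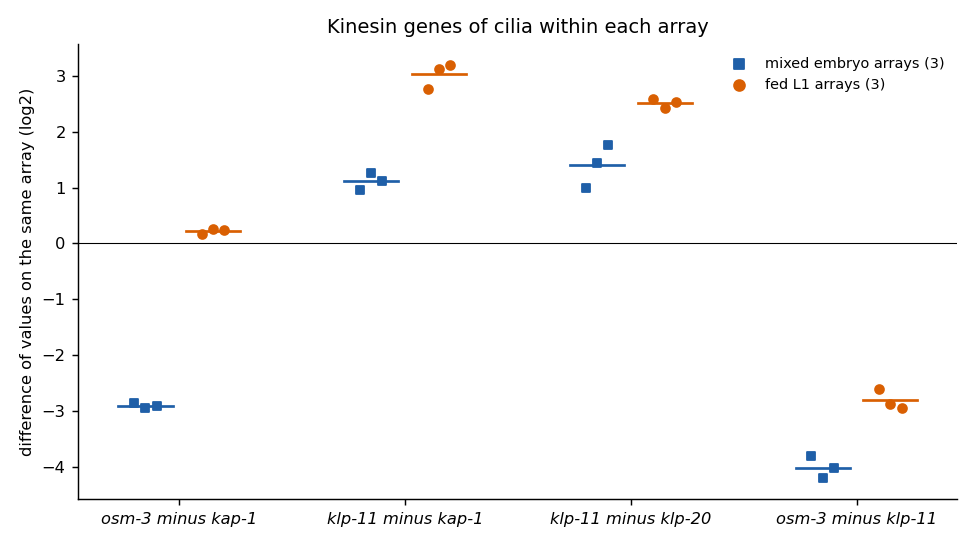
Difference between the values of 2 kinesin genes on the same array (log2, vertical axis) for 4 pairs; blue squares are mixed embryo arrays, orange circles fed L1 arrays and bars the mean of 3 arrays. In each pair the L1 arrays lie above the embryo arrays, most tightly for *osm-3* minus *kap-1*, which goes from about -2.91 to 0.22.

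The genes of the retrograde motor were higher in L1. *che-3*, the heavy chain of the IFT dynein, had 8.33, 8.25 and 8.05 in L1 and 7.41, 7.56 and 7.36 in embryos. It rose by 0.77 (SE 0.10, limma adjusted p = 6.87e-05). *xbx-1*, its light intermediate chain, had 7.10, 7.08 and 7.03 in L1 and 6.65, 6.98 and 6.72 in embryos. Its rise of 0.29 (SE 0.10, adjusted p = 0.0331) was small, and the call was lost on leaving out any array but embryo B (0.22 to 0.31), with array median centring (0.22) and with trend and robust settings. With ribosomal protein centring the *klp-11* difference was 0.23 and that of *xbx-1* -0.065, both without a call.

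Among the IFT-B genes, whose products form the part of the train bound to anterograde kinesin, 4 of 13 rose (30.8%, near the 33.2% of all genes), none fell and 9 did not pass. The median difference was 0.19. *osm-1*, which encodes the IFT172 protein, had 7.58, 7.98 and 7.49 in L1 and 6.73, 7.12 and 7.14 in embryos. It rose by 0.69 (SE 0.15, limma adjusted p = 0.00226). *che-2*, which encodes IFT80, had 6.52, 6.66 and 6.46 in L1 and 5.95, 6.11 and 5.96 in embryos, a rise of 0.55 (SE 0.09, limma adjusted p = 0.000439). In both genes the stages did not overlap.

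*dyf-11*, which encodes IFT54, had 7.14, 7.31 and 7.26 in L1 and 6.54, 6.69 and 6.92 in embryos, a rise of 0.52 (SE 0.11, limma adjusted p = 0.00199) with all L1 arrays higher. *dyf-13*, which encodes IFT56, had 5.31, 5.71 and 5.48 in L1 and 4.96, 5.14 and 5.31 in embryos. The stages met at their edges, the embryo values were at foreign control level, and the measured rise was 0.37 (SE 0.13), or at least 1.05-fold. The *dyf-13* call (limma adjusted p = 0.0269) was lost without L1 replicate 2 (0.26), L1 replicate 3 (0.38), embryo A (0.28) or embryo B (0.37), and also after another quantile normalization (0.26), centring on array medians (0.30) or with array weights (0.26).

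The IFT-B genes that did not pass included core subunits. *osm-5*, the IFT88 gene, had 7.66, 7.93 and 7.63 in L1 and 7.29, 7.49 and 7.61 in embryos. Its L1 arrays lay just above the embryo arrays, with a difference of 0.27 (95% interval 0.01 to 0.53, limma adjusted p = 0.067), while its other probe set gave -0.24. It was called higher without embryo C (0.34) and after another quantile normalization (0.37). *osm-6*, the IFT52 gene, had 7.25, 7.09 and 6.94 in L1 and 6.80, 7.02 and 7.09 in embryos. The stages overlapped, with a difference of 0.12 (95% interval -0.13 to 0.38).

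Further IFT-B genes without a call lay on both sides of zero. *ift-74* had 6.26, 6.39 and 6.28 in L1 and 6.19, 6.11 and 6.15 in embryos, and its partner in tubulin binding, *ift-81*, had 5.64, 5.90 and 5.54 in L1 and 5.50, 5.47 and 5.53 in embryos. In both every L1 array lay above every embryo array, by 0.16 and 0.19 on average. *dyf-3*, which encodes IFT38, had 5.75, 5.96 and 5.63 in L1 and 5.42, 5.44 and 5.69 in embryos, and differed by 0.27 with overlap (limma adjusted p = 0.0686). It was called higher without L1 replicate 3 (0.34) or embryo C (0.35). *che-13*, the IFT57 gene, had 6.68, 6.61 and 6.51 in L1 and 6.73, 6.59 and 6.83 in embryos. Its difference was -0.12, with the stages interleaved. *ifta-2*, a gene for a Rab-like small GTPase, had 6.50, 6.61 and 6.34 in L1 and 6.42, 6.87 and 6.56 in embryos, a difference of -0.14 whose interval was the widest of these (-0.42 to 0.15).

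The dimmest IFT-B genes were *dyf-1*, whose product IFT70 is needed for OSM-3 to work in IFT, and *dyf-6*, the IFT46 gene, both at foreign control level on all arrays. *dyf-1* had 4.57, 4.46 and 4.61 in L1 and 4.63, 4.77 and 4.73 in embryos (difference -0.16, called lower after another quantile normalization and after array median centring, at -0.24 and -0.23). *dyf-6* had 4.97, 4.68 and 5.04 in L1 and 4.88, 4.86 and 4.79 in embryos (difference 0.053). With ribosomal protein centring only *osm-1* of this group remained higher in L1, and *che-13*, *ifta-2*, *dyf-1* and *dyf-6* were called lower (-0.30 to -0.51).

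The IFT-A genes, whose products return with dynein and help bring membrane proteins into cilia, rose in 3 of 4 cases, against 33.2% of all genes. *dyf-2*, which encodes IFT144, had 7.22, 7.20 and 7.02 in L1 and 6.21, 6.39 and 6.40 in embryos. It rose by 0.81 (SE 0.10, limma adjusted p = 3.2e-05), the largest rise among IFT-A and IFT-B genes. Its second, dim probe set differed by 0.11 and did not pass. *che-11*, the IFT140 gene, had 6.73, 7.05 and 6.67 in L1 and 5.64, 6.27 and 6.32 in embryos. It rose by 0.74 (SE 0.18, adjusted p = 0.00386), with embryo array A standing apart, and by 0.52 without that array.

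*ifta-1*, which encodes IFT121, had 8.20, 8.36 and 8.00 in L1 and 7.33, 7.69 and 7.59 in embryos. It rose by 0.65 (SE 0.12, limma adjusted p = 0.00083). The fourth gene, *daf-10*, which encodes IFT122, had 5.26, 5.45 and 5.34 in L1 and 5.26, 5.40 and 5.35 in embryos. It differed by 0.014 (95% interval -0.19 to 0.22), and 2 of its L1 and all of its embryo values lay at foreign control level, where a change could be missed. The rises of *dyf-2*, *che-11* and *ifta-1* held with ribosomal protein centring, under which *daf-10* was called lower (-0.34).

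Genes of the BBSome and of its recruiting GTPase ARL-6 gave calls near the background: 2 of 7 rose and 2 fell (28.6% each way, against 33.2% and 31.2% of all genes), and 3 did not pass. *bbs-8* had 6.87, 7.07 and 6.74 in L1 and 5.93, 6.13 and 6.02 in embryos. All L1 arrays were higher, by 0.87 on average (SE 0.11), or 1.82-fold (limma adjusted p = 3.62e-05). *osm-12*, the gene of the BBS7 subunit, had 6.94, 6.87 and 6.81 in L1 and 6.14, 6.77 and 6.54 in embryos. It rose by 0.39 (SE 0.15, adjusted p = 0.0376), with embryo array A lowest. Without embryo A its difference was 0.22 and was not called. The call was likewise lost without any L1 array or embryo C (0.36 to 0.42), on array median centring (0.32) and on ribosomal protein centring (0.04).

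The BBSome gene *bbs-9* had 5.31, 5.51 and 5.26 in L1 and 5.46, 5.85 and 5.66 in embryos. The stages overlapped, near foreign control level in L1, and the fall of 0.30 (SE 0.12, limma adjusted p = 0.0463) was lost without L1 replicates 1 or 3 or embryos B or C (-0.20 to -0.30). *arl-6* had 4.6, 4.58 and 4.59 in L1 and 4.67, 4.91 and 4.96 in embryos, at foreign control level throughout. Its fall of 0.26 (SE 0.10, adjusted p = 0.042) was lost on leaving out any array but embryo A (-0.20 to -0.26). *bbs-1*, which encodes the subunit that binds ARL-6, had 6.72, 6.73 and 6.73 in L1 and 6.58, 6.88 and 6.73 in embryos. Its difference of -0.0050 (95% interval -0.22 to 0.21) was the smallest of the 45 genes. The coat subunit gene *bbs-5* had 7.40, 7.59 and 7.16 in L1 and 6.91, 7.28 and 7.06 in embryos, with overlap and a difference of 0.30 (limma adjusted p = 0.0708). It was called higher without L1 replicate 3 (0.41) or embryo B (0.40) and after another quantile normalization (0.37). *bbs-2* had 5.16, 5.06 and 4.80 in L1 and 4.80, 4.94 and 4.83 in embryos, all at foreign control level, a difference of 0.15.

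Of 8 transition zone genes 3 fell (37.5%, near the 31.2% of all genes), none rose and 5 did not pass. *mksr-2*, which encodes a B9 domain protein of the MKS module, had 5.30, 5.56 and 5.12 in L1 and 6.76, 6.90 and 7.20 in embryos. The stages were far apart, and 2 of the L1 values lay at foreign control level. Its measured fall of 1.63 log2 units (SE 0.14, limma adjusted p = 2.14e-06) was the largest among the 45 genes, and the level was at least 2.79-fold lower in L1.

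*nphp-1*, which encodes nephrocystin-1 of the NPHP module, had 6.06, 5.96 and 6.17 in L1 and 7.0, 6.98 and 6.92 in embryos. It fell by 0.90 (SE 0.09, limma adjusted p = 6.47e-06). Its partner in that module, *nphp-4*, had 6.73, 6.89 and 6.54 in L1 and 6.51, 6.68 and 6.89 in embryos. The stages overlapped, with a difference of 0.029 (95% interval -0.25 to 0.31), and its second probe set gave 0.09. *mksr-1*, another B9 domain gene, had 5.25, 5.49 and 5.42 in L1 and 5.91, 5.92 and 5.87 in embryos. It fell by 0.51 (SE 0.09, limma adjusted p = 0.000606), or 1.43-fold (95% interval 1.23 to 1.65), again with 2 L1 arrays at foreign control level. By the fold bound it was at least 1.37-fold lower in L1.

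The remaining B9 domain gene, *mks-1*, had 5.37, 5.32 and 5.32 in L1 and 5.24, 5.39 and 5.32 in embryos. It differed by 0.022 (95% interval -0.17 to 0.21) at foreign control level on all arrays. A fall like those of *mksr-1* and *mksr-2* could be missed at that level. *mks-5*, the scaffold gene on which both modules depend, had 6.97, 6.80 and 6.75 in L1 and 7.07, 7.03 and 7.02 in embryos. All its L1 arrays lay below all embryo arrays, but the difference of -0.20 did not pass (limma adjusted p = 0.0809); it did without L1 replicate 1 (-0.27, adjusted p = 0.0404) and with array median centring (-0.27). The membrane protein gene *mks-3* (meckelin) had 6.29, 6.33 and 6.30 in L1 and 5.98, 6.37 and 6.40 in embryos, and the C2 domain gene *mks-6* had 6.55, 6.48 and 6.85 in L1 and 6.42, 6.62 and 6.49 in embryos. Both overlapped between the stages, with differences of 0.058 and 0.11. With ribosomal protein centring *mks-1*, *mks-3*, *mks-5* and *nphp-4* were also called lower in L1 (-0.29 to -0.55).

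Of the 6 other ciliary genes 2 rose (33.3%, near the 33.2% of all genes) and none fell. *che-12*, which encodes a HEAT repeat protein needed for the structure of amphid cilia, had 8.09, 8.02 and 7.97 in L1 and 6.55, 6.82 and 6.98 in embryos. All L1 arrays were higher, by 1.25 (SE 0.12), or 2.37-fold (95% interval 1.98 to 2.84, limma adjusted p = 3.65e-06). *che-10*, which encodes the rootlet protein rootletin, had 6.36, 6.49 and 6.26 in L1 and 5.86, 5.86 and 5.81 in embryos. It rose by 0.52 (SE 0.09, adjusted p = 0.000446), and its other probe set rose by 1.14. With ribosomal protein centring its difference was 0.17 and not called.

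The small GTPase genes of this group, *arl-13* and *arl-3*, showed no call. *arl-13*, whose human relative is a Joubert syndrome gene, had 6.85, 7.26 and 6.86 in L1 and 6.69, 6.78 and 6.61 in embryos. All L1 arrays were higher, by 0.29 (limma adjusted p = 0.0588), and by 0.37 with a call without L1 replicate 1. *arl-3* had 6.82, 6.59 and 6.53 in L1 and 6.64, 7.39 and 7.09 in embryos. Its difference was -0.39 (adjusted p = 0.068), and -0.59 (adjusted p = 0.0013) without embryo A, which was the lowest embryo array. It was also called lower after array median centring, with array weights and with trend and robust settings. The same held with each filter on dim genes (-0.39 to -0.46 in all these). 

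The last 2 genes did not pass either. *dyf-5*, which encodes a kinase that limits cilium length, had 6.23, 5.81 and 6.12 in L1 and 6.07, 6.36 and 5.99 in embryos, a difference of -0.087 with overlapping stages. *tub-1*, the tubby homologue, had 4.72, 4.69 and 4.76 in L1 and 4.61, 4.62 and 4.48 in embryos. Its difference was 0.15, at foreign control level on all arrays.

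Low level limited 6 of the 45 genes, which stayed at or under the foreign control value on all arrays: *dyf-1*, *dyf-6*, *bbs-2*, *arl-6*, *mks-1* and *tub-1*. Without genes at that level, a filter added once the values were known, 15 of 39 cilium genes rose and 7 fell. The falls no longer held *arl-6*, which was removed, but held *arl-3* (-0.39, limma adjusted p = 0.0354). Of all 11645 genes left 4763 rose and 5041 fell (84.2% called). The medians were 0.19 for cilium genes and -0.03 for all genes. Of the 22 calls, 8 rises and 5 falls held their direction and call in every alternative that kept the gene. The rises were *osm-3*, *che-12*, *bbs-8*, *dyf-2*, *che-3*, *che-11*, *osm-1* and *ifta-1*, and the falls *mksr-2*, *kap-1*, *nphp-1*, *klp-20* and *mksr-1*. Some of these have no probe set of the kind designed for a single transcript, namely *osm-3*, *che-12*, *che-3*, *che-11*, *kap-1*, *klp-20* and *nphp-1*, so that alternative did not test them.

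The arrays of a stage did not rank the cilium genes evenly. Embryo array A was the lowest embryo array for 32 of the 45 genes (71.1%), against 41.4% of all genes tested. Embryo array B was the highest for 24 of them (53.3%, against 32.6% of all genes). The median deviation from the stage mean was -0.13 on embryo A, 0.07 on embryo B and 0.02 on embryo C, while over all genes it was at most 0.01 in size.

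On embryo A 9 of 15 pan-neuronal genes were also the lowest of the embryo arrays, with a median deviation of -0.07, and 6 of 10 oocyte and early embryo genes were the highest, with a median deviation of 0.24. Of the sensory transduction genes 4 of 14 were lowest and 6 highest on embryo A, with a median deviation of 0.044. For 11 of these 14 every embryo value lay at foreign control level, where the order of arrays may not show a shift. Among L1 arrays, replicate 3 was the lowest for 26 cilium genes (57.8%, against 35.3% of all genes). The part of these shifts in the results was not tested beyond leaving out each array. Without embryo A 12 cilium genes rose and 8 fell, with a median of 0.12. Of all 17118 genes 5522 rose and 5365 fell without it, with a median of 0.04.

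**Figure D4:**
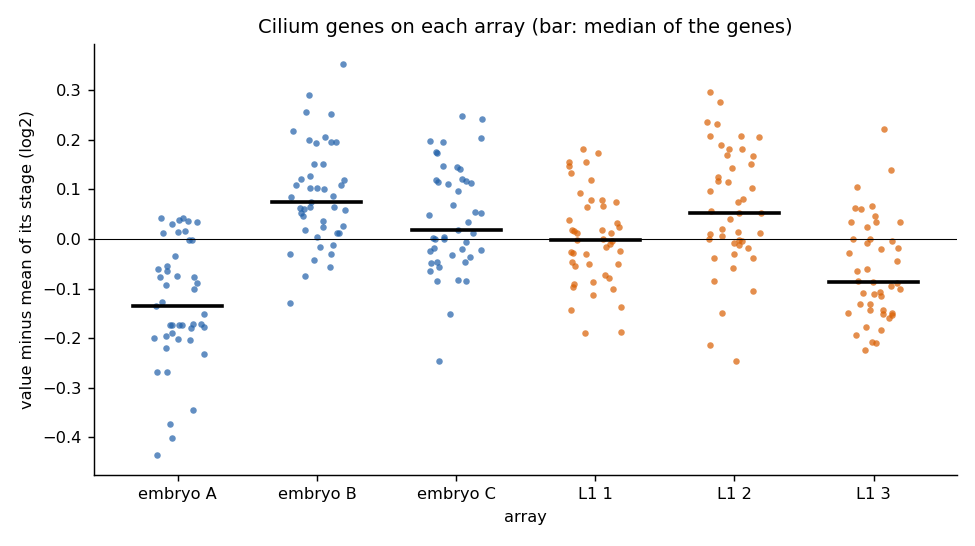
Deviation of each of the 45 cilium genes from the mean of its stage (log2, vertical axis) on each array (horizontal axis); points are genes and black bars their median. The median is -0.13 on embryo A, 0.07 on embryo B and -0.09 on L1 replicate 3.

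Other genes of cilium assembly or function, from a list of 42 of which 33 were measured, fell more often than they rose. Of these 15 fell (45.5%, against 31.2% of all genes) and 6 rose (18.2%, against 33.2% of all genes). The other 12 did not pass, and the median was -0.12. At foreign control level on all arrays were 7 of the 33, of which *pkd-2* was counted as a rise and *klp-6* as a fall. The largest rise was that of *xbx-3*, by 3.16 (SE 0.11). By measured size *ttll-11*, which encodes a tubulin glutamylase, came next at 0.80. Its embryo values lay at foreign control level, so its rise was bounded at 0.27 or more. *cdkl-1*, measured at 0.75, had a higher bound of 0.73 or more. The largest falls were those of *dyf-7* (-3.08, SE 0.096) and *che-14* (-2.57, SE 0.18). As background, the DYF-7 protein anchors dendrite tips while the cell body moves away and CHE-14 acts in apical secretion of epithelia, so neither is a part of the cilium. Further transition zone genes of this list behaved as follows: *tmem-231* fell by 1.55, *jbts-14* fell by 1.15, *tctn-1* fell by 1.09, and *ccep-290* differed by -0.087 and did not pass. Of the other IFT-A genes, *ift-139* rose by 0.29 and *ift-43* differed by 0.24 and did not pass.

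Most genes listed for sensory transduction or for neurons at large rose. Of 14 genes listed for sensory transduction, not all of which act in the cilium itself, 12 rose (85.7%, against 33.2% of all genes). Of the others 1 fell and the last did not pass (median of the 14 genes 0.73). *odr-10*, the diacetyl receptor gene, was at least 20.0-fold higher in L1, and *gpa-2*, a G protein alpha subunit gene of chemosensory neurons, at least 1.71-fold, both with all embryo values at foreign control level. *odr-4*, whose product helps odorant receptors reach cilia, fell by 0.31, and 4 of the 14 stayed at foreign control level on all arrays. Of those at that level, *tax-2*, *tax-4* and *odr-1* were counted among the rises. Of 15 pan-neuronal genes 13 rose (86.7%) and 1 fell, with a median of 1.25. Among these rises *rgef-1* and *unc-31* stayed at foreign control level on all arrays. The fall was that of *unc-11* (-0.28) on the brightest of its 10 probe sets, while 8 of the other 9 were higher in L1 and 5 of those were called (0.33 to 0.59). The largest rises were those of the neuropeptide-processing genes *egl-3* and *egl-21*, by 5.18 and 4.46.

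Cells and structures next to the cilium were measured too. Of 9 genes listed for sheath and socket glia 8 were measured. Of these 3 rose (37.5%, near the 33.2% of all genes) and 5 fell (62.5%, against 31.2% of all genes). *vap-1* and *fig-1*, of the amphid sheath, were at least 12.5-fold and 6.76-fold higher in L1, with embryo values at foreign control level. Among genes of Patched-related proteins *daf-6* fell (-2.10), and *ptr-10*, at foreign control level on all L1 arrays, was at least 2.31-fold lower. All 7 centriole and pericentriolar genes fell (31.2% of all genes did), with a median of -1.89, led by the kinase gene *air-1* (-3.97) and the cartwheel gene *sas-6* (-3.27). As background, centrioles seed the cilium but also serve every dividing cell. The plot by gene list sets the cilium genes between the neuronal genes and the centriole genes; no test was made between lists.

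**Figure D5:**
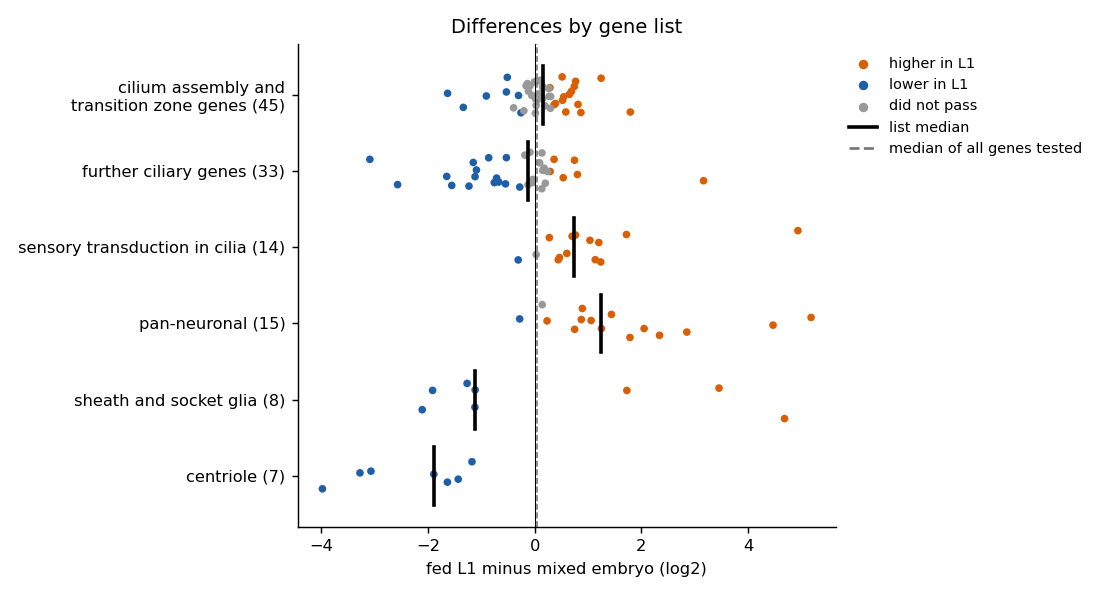
Difference between the stages, fed L1 minus mixed embryo (log2, horizontal axis), for each measured gene of 6 lists (number of genes in parentheses); orange is higher in L1, blue lower, grey did not pass, black bars are list medians and the dashed line is the median of all genes. The cilium genes cluster around a median of 0.15, against 1.25 for pan-neuronal and -1.89 for centriole genes.

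The cilium genes lie on all 6 chromosomes. The X chromosome holds 8 of the measured genes, of which 4 rose (*osm-1*, *che-2*, *dyf-11* and *ifta-1*), 1 fell (*mksr-1*) and 3 did not pass. Of the 37 autosomal genes 11 rose, 6 fell and 20 did not pass. Among all genes tested 39.9% of those on X and 32.2% of those on autosomes rose. With 8 genes on X, these shares are a description only.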

How the data were processed

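For each of 3 fed L1 and 3 mixed embryo samples, 8 µg of RNA was labelled with biotin and hybridised to an Affymetrix array of a single channel. Expression values were deposited on the log2 scale and made with RMA, per the submitters' processing notes, and RMA's version, and whether the 6 arrays were normalized together, are not given in the sources used here. RMA equalises array distributions and compresses low values, so these values do not show a change in an animal's total RNA.

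Of 22625 probe sets, 77 controls were left out, 20766 of the rest named 1 gene, 887 several and 895 none. The highest-mean probe set stood for each of 17118 genes. Groups came from sample titles. limma 3.58.1, under R 4.3.3, fitted the differences (lmFit, then eBayes, 2-sided, Benjamini-Hochberg over all genes, threshold 0.05). SE is limma's moderated error. Pairs of genes were compared by exact permutation in Python 3.11.15. The fit was tested on simulated data. It recovered 44% of genes changed by 0.5 log2 units, 92% at 1 and 98% at 2, with 6 false calls among 16918 unchanged genes. Far fewer genes changed there than were called here, so these shares do not carry over directly. A gene that did not pass may still differ. Symbols were matched to WBcel235 for chromosome names only.

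The members and lists were chosen with earlier results of these data known. Each member could be named. Values on each array are given at least for *daf-19* and, per role, for the 2 largest called differences in the main direction, the largest in the other, and members that did not pass. In comparison lists the 2 largest each way were named. Further transition zone and IFT-A genes of those lists, *cdkl-1* and calls at foreign control level were named after their values were seen. Alternatives were other scalings, filters on dim genes, variance models, array weights, probe set rules and leaving out each array. A planned search for promoter motifs was not run, because no promoter sequences were used here.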

Additional observations from a re-analysis of the deposited data

How the results depend on the processing

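How many cilium genes rose or fell depended on the scaling. Centred on ribosomal proteins (shift of the median of all genes -0.35), 8 cilium genes rose and 20 fell, with a median of -0.20. On that scale 7 rises lost their call, all 7 falls kept it, and 13 genes without a call were called lower. Of the last, *daf-10* (-0.34), *dyf-6* (-0.30), *mks-1* (-0.33), *mks-3* (-0.29) and *nphp-4* (-0.32) had been just above zero, and *xbx-1* (-0.065) lost its call and its sign. Centred on array medians 12 rose and 10 fell, beside 5158 and 5708 of all genes. With genes below the 50th percentile of mean level removed, which removed 18 of the 45, 4 fell and the median was 0.29. Of the 8559 genes left in all, 7304 were called, 4030 of them lower. With probe sets designed for single transcripts, which left 34 members, 4 fell, beside 3796 of the 13618 genes left in all. Leaving out each array gave 12 to 15 rises, 5 to 8 falls, medians of 0.12 to 0.17 and 10410 to 10887 genes called in all. The median was 0.086 after repeated quantile normalization, 0.082 with array median centring and 0.086 with probe sets for single transcripts. Its gap to the median of all genes, 0.10, was 0.024 with those probe sets, 0.075 with the mean of probe sets and 0.47 above the 50th percentile. Repeated quantile normalization, the 25th percentile filter, trend and robust settings, array weights and the mean of probe sets kept each of these counts within 1.5 times. No paired analysis was possible because the embryo replicates carry letters and the L1 replicates numbers, with nothing that links them. The motif search and its alternatives were not run.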

Other observations

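Several cilium genes had more than 1 probe set, 9 in all, and these differed in what they showed. For *osm-5* they opposed each other in sign, with 0.27 at a mean level of 7.60 and -0.24 at 6.78, neither called over all probe sets. For *che-10*, 2 probe sets of nearly equal level (6.11 and 6.08) gave rises of 0.52 and 1.14. For *dyf-2*, *che-13* and *ift-81* the second probe set lay at a mean of 4.78, 4.42 and 4.90, below the highest foreign control value, and gave 0.11, -0.09 and 0.13. For *klp-20* both agreed within their errors, at -0.53 and -0.54.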
